A study of Mus musculus with 3 samples.

Results

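The regions described here carried a called peak of methylated DNA in epididymal fat of mice on a normal diet and on a high-fat diet, and no called peak in mice given folic acid with the high-fat diet. The animals, C57BL/6J males, were 6 weeks old when the diets began, spent 10 weeks on 1 of 3 regimens and were 16 weeks old at sampling per the labels. The normal diet (ND) gave about 10% of energy as fat, the high-fat diet (HFD) about 60%, and the third group (FAD) ate the same high-fat diet and drank water with 20 μg/mL of folic acid. Methylated DNA immunoprecipitation sequencing (MeDIP-seq) gave 1 library for each regimen, and the labels do not say whether a library holds 1 animal or pooled tissue. Autosomal peaks of the 3 lists were pooled and merged wherever they shared 1 bp, which made 154503 merged regions. Of these, 17151 (11.1%) held at least 1 ND peak and at least 1 HFD peak and no FAD peak, and they are called FAD-lacking regions below. They were chosen by the presence and absence of called peaks in these same libraries, so their absence from FAD is the definition of the set and not a result, and with 1 library a diet no difference has a replicate check.

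DNA methylation in mammals sits mostly on the cytosine of CpG dinucleotides. Folate carries the single-carbon units from which S-adenosylmethionine, the methyl donor of the DNA methyltransferases, is made. In adipose tissue most of the genome is methylated, while the promoters of active genes, above all those rich in CpG, are usually not. An antibody against methylated cytosine enriches fragments that hold several methylated CpGs, so a MeDIP peak needs both methylation and CpG, and it measures neither in percent. The lists hold no expression values, so the labelled tissue was not checked against its markers by expression.

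The FAD-lacking regions that hold a whole promoter window show what such a peak covers. A window is the stretch from 250 bases before to 50 bases after a RefSeq start, 300 bases long, in assembly GRCm38.p6. The whole window lay inside the region for 71 windows in 67 FAD-lacking regions. The first 4 sequences are those of the strongest regions with a named gene, where the strength of a region is the lower of its percentile ranks in the ND and HFD lists by the authors' peak score. The window of Igf2r was added after its values were seen, because it held the most CpGs of the 71, and that of Dazl, a germ cell gene, comes from a region with a peak in all 3 libraries. They are written 5′ to 3′ on the strand of the gene, with each CpG in capitals.
Uts2, urotensin 2, chr4:150996847-150997146, plus strand: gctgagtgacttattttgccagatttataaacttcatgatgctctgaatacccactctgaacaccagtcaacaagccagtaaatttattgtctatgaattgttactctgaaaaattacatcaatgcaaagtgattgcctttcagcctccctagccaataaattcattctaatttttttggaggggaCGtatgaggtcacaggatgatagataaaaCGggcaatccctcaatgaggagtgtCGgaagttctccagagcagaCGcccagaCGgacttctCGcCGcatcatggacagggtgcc
Stpg4, chr17:87427692-87427991, minus strand: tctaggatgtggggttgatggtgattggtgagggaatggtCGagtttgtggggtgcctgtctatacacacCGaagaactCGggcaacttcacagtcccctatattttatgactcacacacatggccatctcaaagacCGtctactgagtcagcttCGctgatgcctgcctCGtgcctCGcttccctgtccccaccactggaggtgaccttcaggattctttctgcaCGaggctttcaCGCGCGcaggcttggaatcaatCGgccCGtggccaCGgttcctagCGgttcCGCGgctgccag
LOC108167751, a long non-coding RNA, chr1:182487536-182487835, plus strand: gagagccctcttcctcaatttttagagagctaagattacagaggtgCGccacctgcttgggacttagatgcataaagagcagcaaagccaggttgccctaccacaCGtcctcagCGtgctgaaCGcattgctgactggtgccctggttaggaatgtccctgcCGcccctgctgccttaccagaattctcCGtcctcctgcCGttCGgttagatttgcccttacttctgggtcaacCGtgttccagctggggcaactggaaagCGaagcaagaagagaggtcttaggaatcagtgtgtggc
Lrrc71, chr3:87748574-87748873, minus strand: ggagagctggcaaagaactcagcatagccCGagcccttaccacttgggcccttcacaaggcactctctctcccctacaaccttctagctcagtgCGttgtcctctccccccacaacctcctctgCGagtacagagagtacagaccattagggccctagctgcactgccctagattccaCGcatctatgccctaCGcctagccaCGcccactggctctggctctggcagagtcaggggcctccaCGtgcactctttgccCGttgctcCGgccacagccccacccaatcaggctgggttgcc
Igf2r, the receptor of insulin-like growth factor 2, chr17:12769657-12769956, minus strand: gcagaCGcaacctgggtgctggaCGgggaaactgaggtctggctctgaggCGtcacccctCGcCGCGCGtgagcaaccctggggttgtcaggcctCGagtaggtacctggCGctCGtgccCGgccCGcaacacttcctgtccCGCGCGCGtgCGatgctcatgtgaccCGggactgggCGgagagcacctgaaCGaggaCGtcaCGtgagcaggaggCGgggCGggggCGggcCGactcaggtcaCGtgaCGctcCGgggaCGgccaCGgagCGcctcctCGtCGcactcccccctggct
Dazl, in a region of all 3 libraries, chr17:50293571-50293870, minus strand: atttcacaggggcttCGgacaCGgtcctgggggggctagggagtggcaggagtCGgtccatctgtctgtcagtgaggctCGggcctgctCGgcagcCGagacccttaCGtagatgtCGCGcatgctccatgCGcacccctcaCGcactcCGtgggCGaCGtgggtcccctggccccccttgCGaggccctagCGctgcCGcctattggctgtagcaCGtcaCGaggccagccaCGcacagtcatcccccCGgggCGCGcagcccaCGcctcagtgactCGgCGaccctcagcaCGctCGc
These windows held 7 CpGs at Uts2, 17 at Stpg4, 10 at LOC108167751, 9 at Lrrc71, 34 at Igf2r and 28 at Dazl.

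The scores behind these promoters were modest. The Uts2 region, chr4:150996645-150997363, scored 228 in ND and 134 in HFD, and the nearest FAD peak lay 11665 bp away. Uts2 encodes a vasoactive peptide, and the same region also overlapped the end of the clock gene Per3, whose record contains that of Uts2. At Stpg4 the scores were 126 in ND and 120.5 in HFD, with FAD 4723 bp away. LOC108167751 had 151 and 118, and Lrrc71 had 99.5 and 99.9. The Igf2r region scored 63.3 in ND and 64.3 in HFD, close to the lists' lowest score of 50, and the nearest FAD peak lay 15135 bp away. Igf2r is an imprinted gene whose promoter is known to be methylated on the silent paternal copy. By contrast the Dazl region scored 581 in ND, 602 in HFD and 398 in FAD.

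CpG content over all such windows was intermediate. The 71 windows inside FAD-lacking regions held a median of 10 CpGs, from 5 at the 10th percentile to 16 at the 90th, and 3 of them (4.23%) held 20 or more. The 464 windows inside regions of all 3 libraries held a median of 11, and 9.91% held 20 or more. The 50 windows inside regions lacking only ND held a median of 7.5, with 4% at 20 or more and 18% below 5. Among all 31365 windows of the table the median was 7, with 27.0% at 20 or more and 37.7% below 5, against 7.04% below 5 in the FAD-lacking regions. Promoters in FAD-lacking regions were thus neither as often CpG-poor nor as often CpG-rich as promoters at large, and the same held for those in regions lacking only ND. Their median was 1 CpG below that of promoters with peaks in all 3 libraries for the FAD-lacking set.

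**Figure D1:**
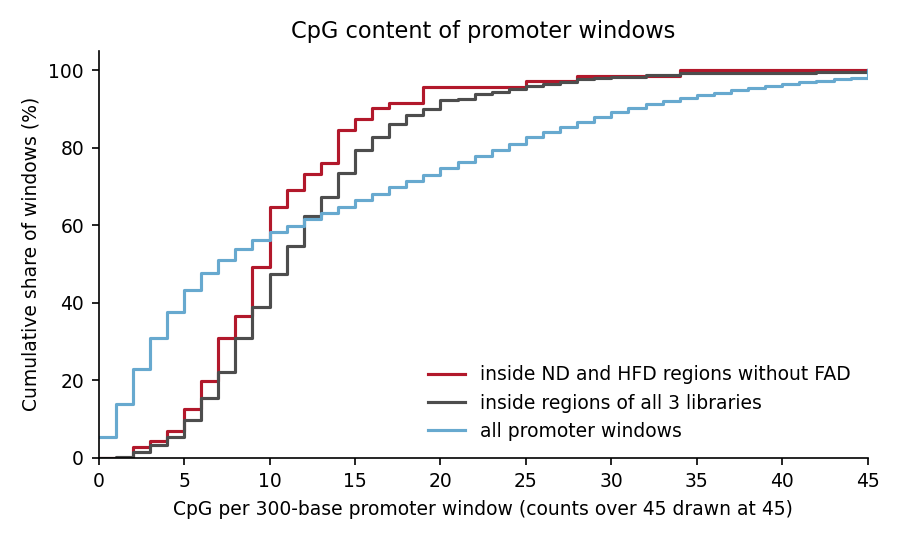
CpG dinucleotides per 300-base promoter window (x axis, windows over 45 drawn at 45) against the cumulative share of windows in percent (y axis), for 71 windows inside FAD-lacking regions, 464 inside regions of all 3 libraries and all 31365 windows. The curves of the 2 region sets rise together between 5 and 20 CpGs, while 27.0% of all windows hold 20 or more.

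The lists differ in length, which bears on every count below. The ND list held 96063 autosomal peaks over 55.9 Mb, the HFD list 130093 over 85.2 Mb and the FAD list 90352 over 46.1 Mb, and read depth is unknown from them. Every list starts at a score of 50, the scale of which the sources do not state. A region lacks an FAD peak when nothing there passed the authors' threshold, which does not show that methylated DNA was absent. Intervals given in parentheses are Wilson 95% intervals and cover counting error over regions only, not variation between animals.

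Of all regions with both an ND and an HFD peak, 21.7% lacked FAD (17151 of 78891, interval 21.5 to 22.0%). The like share for the pair HFD and FAD, the regions lacking ND, was 17.4% (13048 of 74788), and for the pair ND and FAD, lacking HFD, 5.46% (3569 of 65309). With each list cut to its 95501 top-scoring peaks, as many as the FAD list has in all, the 3 shares were 15.7%, 14.5% and 12.3%. The order of the shares was kept, and the gap between the first 2 became 10403 regions against 9430.

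**Figure D2:**
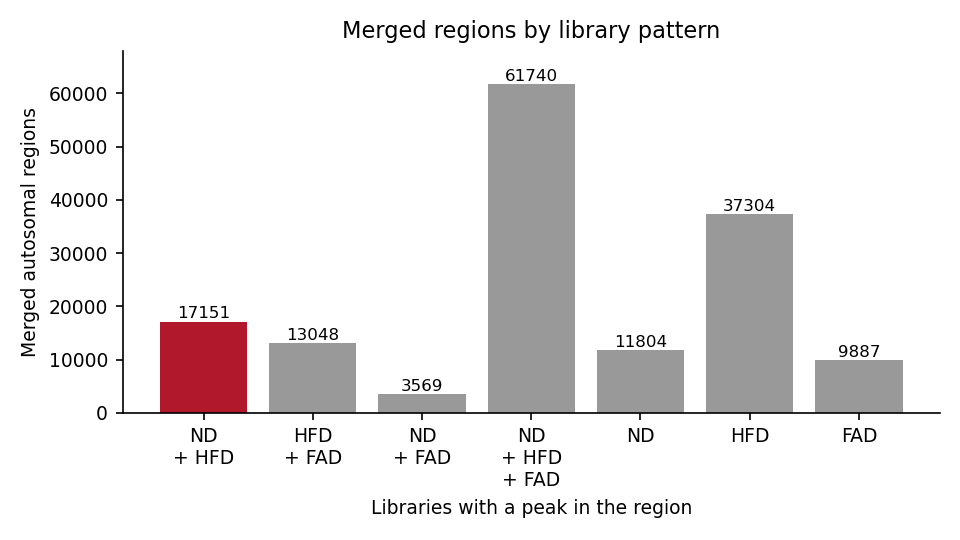
Number of merged autosomal regions (y axis) for each combination of libraries with a peak (x axis), 1 library per diet. The 17151 regions with ND and HFD peaks and no FAD peak (first bar) compare with 13048 that lack ND only, 3569 that lack HFD only and 61740 with all 3 peaks.

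FAD-lacking regions were weak and narrow beside regions found in every library. Their median score was 75.5 in ND (90th percentile 120) and 84.6 in HFD (145), while regions of all 3 libraries had medians of 135 and 166. Their median merged width was 591 bp against 733 bp, the latter including the FAD peaks. Counting ND peaks alone the medians were 451 and 549 bp, and HFD peaks alone 557 and 675 bp. Regions that lacked only ND had like values, with a median HFD score of 85.2 and a width of 572 bp, and those that lacked only HFD a median ND score of 70.8 and a width of 513 bp, so low scores and small width went with any region missing from 1 list. A score of 200 or more was reached by 74 of them in ND (0.431%) and by 352 in HFD (2.05%), and the highest scores were 329 and 463. In the ND list the median FAD-lacking region stood at percentile 30.6 of all peaks, and in the HFD list at percentile 39.8.

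The share of ND and HFD regions that lacked FAD fell along the order of strength. It was 54.3% in the weakest decile (4284 of 7890), 22.0% in decile 5 and 2.02% in decile 8. In decile 9 FAD was lacking at 24 of 7889, and in the strongest 0 of 7889, which allows a share of up to 0.0380%. By width the share fell from 39.97% in the narrowest decile (206 to 451 bp) to 4.07% in the widest (1235 bp and over). This width is that of the merged region, which an FAD peak can extend, so part of the fall is built into the measure.

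At a given HFD score, regions shared with ND and lacking FAD outnumbered those shared with FAD and lacking ND, up to a score of 200. Between scores of 75 and 100, 19.8% of HFD regions were of the first kind (4843 of 24470) and 14.2% of the second (3471). Between 200 and 300 the shares were 2.61% and 2.86%, and at 300 and above 15 regions were of the first kind and 35 of the second. The direction at scores of 200 and above turned with the peaks used. With whole lists it was 352 regions lacking FAD against 405 lacking ND, with lists of equal length 345 against 445, but with the upper 50% of each list 1540 against 1261 and with scores of at least 100 in every list 1741 against 1173. With the upper 50% or the cut at 100, the library counted as lacking can hold a weaker peak there.

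**Figure D3:**
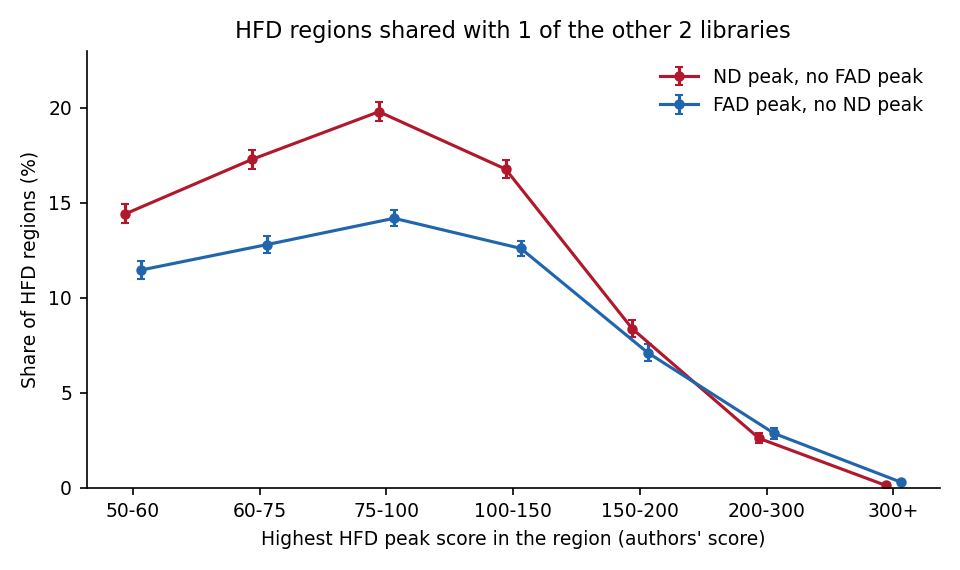
Share of HFD regions in percent (y axis) with an ND peak and no FAD peak (red) or an FAD peak and no ND peak (blue), by the highest HFD score of the region (x axis, 7 bins). Bars are Wilson 95% intervals over regions. The red share peaks at 19.8% between scores of 75 and 100, and the 2 curves cross near a score of 200.

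Within a FAD-lacking region the ND and HFD peaks marked the same place. In 17022 of the 17151 (99.2%) there was 1 peak of each library. In these the overlap had a median of 406 bp, the peak midpoints lay a median of 48.5 bp apart, and 91.5% overlapped by at least 50% of both peaks. The HFD peak was the wider in 76.1% and the higher-scoring in 60.2%, and in 8506 regions (49.97%) the ND peak lay wholly inside the HFD peak. This was not particular to these regions, as HFD peaks were wider over the autosomal lists (median 585 bp against 504 bp in ND). In regions lacking only ND the HFD peak was wider than the FAD peak in 88.0%, higher-scoring in 62.6% and held it wholly in 65.3%. Scores of different lists share no stated scale, so the comparisons of score are only of the numbers as deposited.

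Most FAD-lacking regions lay well apart from any FAD peak. The nearest FAD peak lay a median of 7377 bp away, with 966 bp at the 10th percentile and 29261 bp at the 90th. It lay within 500 bp at 883 regions (5.15%), beyond 5000 bp at 10708 (62.4%) and beyond 50000 bp at 542 (3.16%). Regions lacking only ND were much alike, with the nearest ND peak a median of 6726.5 bp away and beyond 5000 bp at 59.5%. For regions lacking only HFD the nearest HFD peak was at a median of 3400 bp, and beyond 5000 bp at 39.4%. At the edge of the definition, 32 FAD-lacking regions had an FAD peak within 50 bp (median scores 77.5 in ND and 65.7 in HFD), and 10 regions of all 3 libraries held an FAD peak that overlapped the ND and HFD peaks by at most 50 bp (81.4 and 74.5). The surroundings were not poor in FAD peaks. Within 50000 bp, FAD-lacking regions had a mean of 5.30 ND, 7.23 HFD and 4.93 FAD peaks as neighbours, against 5.12, 6.83 and 4.77 around regions of all 3 libraries.

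The strongest FAD-lacking region lay in P2ry6, which encodes a receptor for the nucleotide UDP. It spanned chr7:100938114-100939417 at an end of the gene record, scored 260 in ND and 272 in HFD, and had the nearest FAD peak 5773 bp away. The next, chr1:95783199-95784694, lay between genes, 115482 bp from St8sia4, a polysialyltransferase gene, and scored 269 and 263. FAD peaks were 43662 bp away. A region at chr3:23795853-23796206, 1897 bp outside Naaladl2, scored 227 and 235 and was 107620 bp from the nearest FAD peak, though it was only 354 bp wide. In each of these the 2 scores stood near percentile 85 to 89 of their lists.

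Of the 10 strongest, 6 lay between genes, 2 in gene records away from the ends and 2 at gene ends. Inside Rap1gap2, a gene of a GTPase-activating protein for Rap1, chr11:74554830-74555376 scored 234 in ND and 218 in HFD, and here an FAD peak lay only 339 bp away. Inside Luzp1, chr4:136487697-136488128 scored 210 and 263. A region 3666 bp from Lalba, the gene of the milk protein alpha-lactalbumin (chr15:98486600-98487735), scored 222 and 218, and one 6272 bp from the transcription factor gene Klf17 (chr4:117749174-117750387) scored 208 and 230. The others lay at chr13:87709447-87710525 (232 and 247), chr3:10742738-10743240 (238 and 221) and chr11:50560431-50561034 (216 and 211), where Adamts2, a procollagen-processing protease gene, was the nearest coding gene at 41051 bp. With FAD peaks within 5000 bp disallowed, Rap1gap2 left these 10 and a region in the Kruppel-like factor gene Klf7 entered (chr1:64078542-64079415, scores 203 and 255, FAD 30600 bp away), which also covers the promoter window of the lncRNA Gm13748.

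The extremes of width and isolation were not the strongest regions. The widest spanned 2837 bp (chr5:17244494-17247330, between genes, scores 62.9 and 92.2), followed by 2568 bp inside Sema4d, a semaphorin gene (51.9 and 139, with an FAD peak 83 bp away), and 2448 bp inside Nin, the ninein gene of the centrosome (118 and 173). The region farthest from any FAD peak, at 228815 bp, was chr9:28935071-28935434, 9661 bp from the cell adhesion gene Opcml, with scores of 146 and 127. Next came one in the glutamate receptor gene Grik2 (195862 bp; 90.4 and 64.3) and one in the adhesion gene Ncam2 (192576 bp; 114 and 127).

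FAD-lacking regions were spread over all 19 autosomes. The share of ND and HFD regions lacking FAD ran from 20.9% on chromosome 16 (588 of 2820) to 24.3% on chromosome 11 (1064 of 4375), with 23.5% on chromosome 9. In the 252 windows of 10 Mb with at least 50 such regions it had a median of 21.5% and ran from 9.38% at chr1:1-10000000 to 31.5% at chr7:110000001-120000000 (87 of 276, interval 26.3 to 37.2%). Windows with more coding genes had higher shares. In the 84 windows with fewest genes (4 to 48) the median was 18.7%, in the middle 84 it was 22.3% and in the 84 with most (91 to 314) 22.5%. The median HFD score fell in the same order, from 149.55 to 141.25 and 136.6, and strength was not held fixed in this comparison. Spearman's rho between gene number and the share was 0.44 over the 252 windows, which share libraries and differ in base composition. For the share of HFD and FAD regions that lacked ND it was 0.096.

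Gene records held a larger share of FAD-lacking regions than the space between genes. Inside or at an end of a protein-coding record, 23.8% of ND and HFD regions lacked FAD (9622 of 40433, interval 23.4 to 24.2%), and elsewhere 19.6% (7529 of 38458, 19.18 to 19.98%). Regions elsewhere were stronger (median ND score 121 against 108), so the shares were also read within 5 bins of equal size by strength. Inside genes against elsewhere they were 52.1% and 49.2% in the weakest bin, 36.8% and 33.6% in bin 2, 1588 of 8313 and 1274 of 7465 regions in the middle, and 5.07% and 3.45% in bin 4. In the strongest bin 14 of 6915 and 10 of 8863 lacked FAD, with intervals that overlapped. For regions of HFD and FAD that lacked ND the values were 18.2% inside and 16.6% elsewhere. By place, FAD was lacking at 18.5% of regions that touched a promoter window (185 of 1000), 23.5% at other gene ends, 23.9% in coding records, 21.6% in non-coding records and 19.14% between genes.

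**Figure D4:**
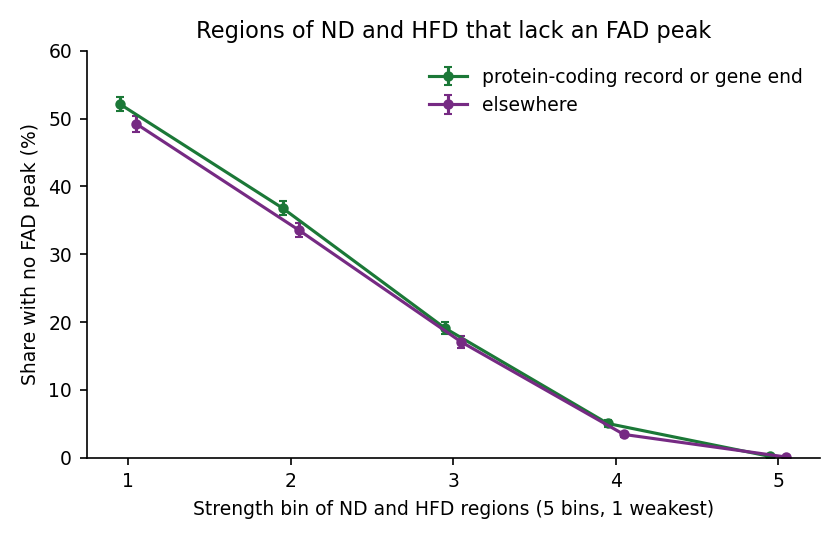
Share of ND and HFD regions with no FAD peak in percent (y axis) by bin of strength (x axis, 5 bins of equal size, 1 the weakest), inside or at an end of a protein-coding record (green) and elsewhere (purple), with Wilson 95% intervals over regions. The green point is above the purple in each bin, 52.1% against 49.2% in the weakest, and both are near 0 in the strongest.

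A FAD-lacking region overlapped the record of 5547 of 20665 autosomal protein-coding genes (26.8%), and most of these genes kept FAD peaks elsewhere. In 3583 genes there was 1 such region, and 247 genes held 5 or more. An FAD peak lay elsewhere in the record of 4626 of the 5547 (83.4%). The count goes with gene length, as the median record was 52.8 kb among the 5547 genes and 17.5 kb among all. The most FAD-lacking regions, 21 each, lay in Cdh13, which encodes T-cadherin, an adiponectin-binding adhesion protein, and in Tenm3, a teneurin gene of neuronal wiring. Cdh13 held 70 ND, 97 HFD and 52 FAD peaks in all, and Tenm3 73, 94 and 56. Next were Slc39a11, a zinc transporter gene (15 regions), the transcription factor genes Zfhx3 (14) and Camta1 (12), and Agap1 (11). In Camta1 the FAD peaks (65) outnumbered the ND peaks (63) in spite of the 12 regions without FAD.

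In 783 genes (3.79% of all coding genes) a FAD-lacking region was present and no FAD peak lay in the record or within 2000 bp of it. These were short genes, with a median record of 14.9 kb. The strongest was Gpr151, an orphan G protein-coupled receptor gene of 1.77 kb, with a region at chr18:42578769-42579696 that scored 255 in ND and 196 in HFD, 20685 bp from any FAD peak. Eif3c, a subunit gene of translation initiation factor 3, had a region at chr7:126563477-126564319 with 170 and 240. Ttc12 had 169 and 248, and Taar1, the receptor gene for trace amines, 172 and 164. Insig2, whose product retains the sterol sensor complex in the endoplasmic reticulum and so restrains lipid synthesis, held 1 ND and 1 HFD peak in 28.3 kb, together at chr1:121315319-121315815 with scores of 160 and 203, and the nearest FAD peak lay 40668 bp away. The mitochondrial ribosomal protein gene Mrpl3 (160 and 178), the thyroid hormone transporter gene Slco1c1 (157 and 199.6) and Guca2a, the guanylin gene (154 and 247), completed the leading 8.

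At gene ends (2000 bp outside to 500 bp inside the record) or promoter windows, 1151 coding genes (5.57%) had a FAD-lacking region, 87 of them at a promoter window. The table of genes gives no strand, so an end can be the start or the finish. After P2ry6, Naaladl2 and Gpr151 came Ubp1, a transcription factor gene (chr9:113979258-113979836, 181 in ND and 183 in HFD). A single region at chr7:44532933-44534030 (171 and 182) served both Pold1, the catalytic subunit gene of DNA polymerase delta, and Spib, a transcription factor gene of B cells. The nuclear receptor coactivator gene Ncoa5 (174 and 169, FAD 23080 bp away) and Lrrc17 (165 and 166) followed. None of these 8 was at a promoter window in the table.

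Members also lay side by side. When the autosomal regions were read in order, 348 runs of 3, 60 of 4 and 12 of 5 FAD-lacking regions followed each other with no FAD peak between them, and ND-only or HFD-only regions were allowed inside. In all 7.84% of FAD-lacking regions were in runs of 3 or more, against 4.22% of the regions lacking ND and 0.420% of those lacking HFD, counts that move with the number of regions in each set. The 12 longest tie at 5, and the densest of them are described, an order chosen after they were seen.

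The densest run, chr12:76469423-76494881, put 5 regions into 25.5 kb outside any gene record, with ND scores of 58.1 to 129 and HFD scores of 59.5 to 146, in a stretch of 46.1 kb free of FAD peaks. A run over Mex3a, Rab25, Lamtor2 and Ubqln4 (chr3:88526760-88565879) spanned 39.1 kb within 83.5 kb free of FAD peaks, with ND scores up to 114 and HFD scores up to 97.7. Another crossed Exph5 and Poglut3 (chr9:53367027-53406764, 39.7 kb), and another lay in Sh3gl3, an endophilin gene (chr7:82196357-82236225, 39.9 kb, HFD scores up to 157). The run next in density crossed Cyp1a2 and Cyp1a1 (chr9:57664737-57707996), the neighbouring genes of cytochrome P450 enzymes that oxidise aromatic compounds and are induced through the aryl hydrocarbon receptor. Its 5 regions in 43.3 kb scored 62.6, 66.3, 127, 102.2 and 56.7 in ND and 101, 93.6, 70.0, 96.4 and 57.9 in HFD, and 89.2 kb held no FAD peak. Further runs of 5 included the ephrin receptor gene Epha4 and the pair Dmc1, a meiotic recombinase gene, and Fam227a.

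For gene groups the share of ND and HFD regions in the members' records that lacked FAD was read, because it does not grow with gene length. Over all coding records it was 23.8% (9192 of 38703). The 20 lists held 924 genes found on autosomes, of which 314 (34.0%) had a FAD-lacking region in the record, against 26.8% of all coding genes. Counts of genes, here and for each list below, go with record length. Its median was 17.5 kb over all coding genes and, for instance, 93.1 kb in the cAMP list and 69.0 kb in the insulin list. The lists' own shares lay on both sides of the share over all records, and with whole lists the interval of 18 of the 20 included it. Over 6 settings of the peaks 4 lists were above the share of all records each time, 5 were below each time and 11 fell on both sides. The intervals are not adjusted for the number of lists. Peak strength, along which the share fell, was not held fixed between lists.

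With whole lists the clock genes had the highest share of the 20. Of 86 ND and HFD regions in their records, 30 lacked FAD (34.9%, interval 25.7 to 45.4%), and 13 of the 26 genes held at least 1. The share lay above that of all coding records in 6 of 6 settings of the peaks, for instance 32.9% against 17.5% with lists of equal length and 18.6% (interval 11.8 to 28.1%) against 14.2% when FAD peaks within 5000 bp counted as present, where the interval included the share of all records. It was not the highest in every setting: developmental transcription factors reached 20.3% under the 5000 bp rule, and inflammation genes 42.9% against 41.2% for the clock genes with scores of at least 100. Rora, a nuclear receptor gene of the clock's secondary loop, held 9 of the 30 among its 26 regions, and without it the share was 35.0% (21 of 60). Both cryptochrome repressor genes were included: Cry1 lacked FAD at 3 of 6 regions (the strongest 107 in ND and 113 in HFD) and Cry2 at 1 of 2 (111 and 111). Of the period genes, Per1 lacked it at 1 of 2, Per2 at 1 of 6 and Per3 at 1 of 5, the last being the region shared with the Uts2 promoter. The activator genes Clock and Arntl (BMAL1) lacked it at 1 of 3 each, Npas2 at 5 of 9 and Arntl2 at 2 of 5. Rorb lacked it at 3 of 6 (157 and 127), and Nr1d1, the gene of REV-ERB alpha, at its single region (57.8 and 98.1), 6794 bp from the nearest FAD peak. Apart from Rorb and Per3 (228 and 134), the strongest FAD-lacking region of each of these clock genes scored below 120 in both libraries.

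The long neuronal adhesion genes had a share below that of all records. FAD was lacking at 212 of their 1095 ND and HFD regions (19.4%, interval 17.1 to 21.8%), and the share stayed below in 6 of 6 settings, although 50 of the 57 genes held at least 1 such region in records with a median length of 1098 kb. Cdh13 (strongest region 246 and 193), Csmd2 (203 and 185) and Negr1, an adhesion gene linked to body weight (172 and 232), led by strength. With FAD peaks within 5000 bp counted as present the distance shrank to 14.1% against 14.2%.

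**Figure D5:**
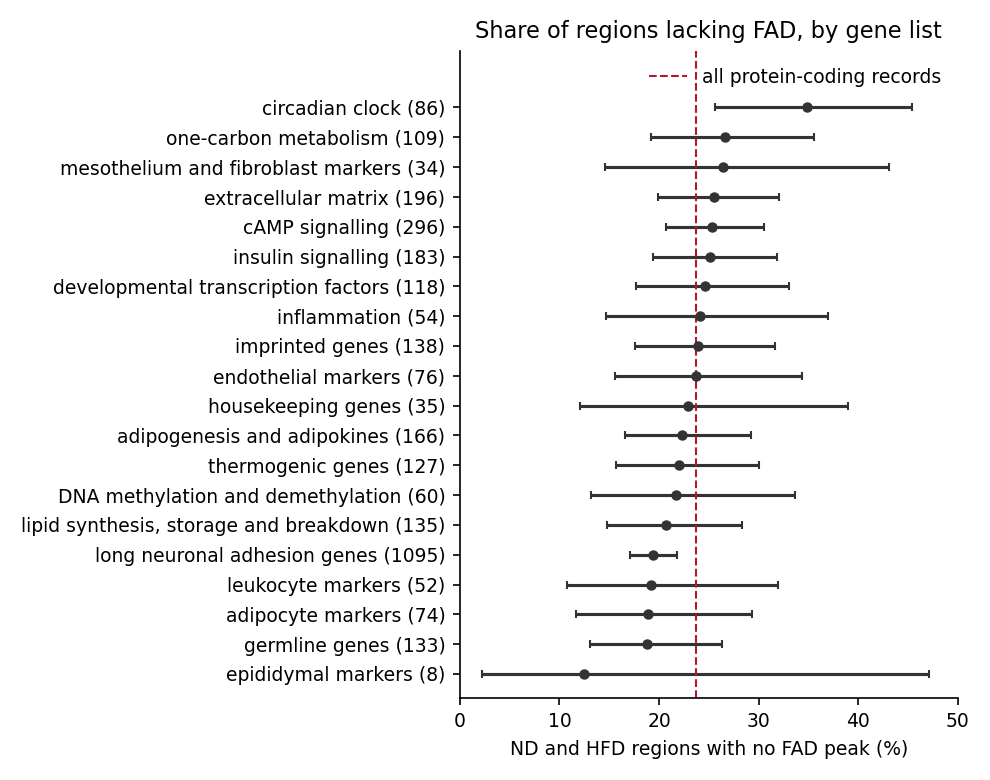
Share of ND and HFD regions in the gene records of each list that had no FAD peak in percent (x axis), for 20 gene lists (y axis, number of regions in parentheses), with Wilson 95% intervals over regions. The dashed line is the 23.8% over all coding records, and the circadian clock list (34.9%) and the long neuronal adhesion genes (19.4%) are the lists whose interval does not include it.

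Genes of fat cell formation and insulin action held many FAD-lacking regions, at shares of which the intervals included that of all records. Among adipogenesis and adipokine genes 37 of 166 regions (22.3%) lacked FAD, in 19 of 45 genes, and with scores of at least 100 the share turned above that of all records (33.3% against 25.9%). That cut leaves weaker FAD peaks uncounted. Adipor2, an adiponectin receptor gene, had its strongest at a gene end (chr6:119353550-119353887, 146 in ND and 145 in HFD, FAD 11985 bp away), and Klf15, a regulator of adipogenesis, had one with 140 and 199. Prdm16, the transcription factor gene of brown and beige identity, held 4, the strongest with 126 and 200. For insulin signalling it was 46 of 183 regions (25.1%), in 24 of 49 genes. Rictor, the defining subunit gene of mTOR complex 2, held 4 FAD-lacking regions and in all 6 ND, 10 HFD and 1 FAD peak. Inpp5d, a lipid phosphatase gene, had 1 with 114 and 122.

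Lipid and thermogenic genes fell on both sides of the share of all records, depending on the peaks used. Of 135 regions in genes of lipid synthesis, storage and breakdown 28 lacked FAD with whole lists (20.7%), and the share was 29.8% against 23.6% with the upper 50% of peaks and 31.9% against 25.9% with scores of at least 100. With the upper 50% or the cut at 100, a region holding only a weaker FAD peak counts as lacking FAD. The strongest were in Lpin1, the phosphatidate phosphatase gene (4 regions, strongest 114 and 186), Srebf2, a regulator of sterol synthesis (126 and 112), and Elovl6, a fatty acid elongase gene (88.2 and 124). Of 127 in thermogenic genes 28 did (22.0%), in 8 of 37 genes, below the share of all records. The other 5 settings put them above it, for instance 31.4% with scores of at least 100 and 18.1% against 14.2% under the 5000 bp rule. There Ryr2, a calcium release channel gene, had the strongest (182 and 255), and Ppargc1a, the gene of the coactivator PGC-1 alpha, held 7 FAD-lacking regions, the strongest with 97.7 and 176 and 104632 bp from the nearest FAD peak. In its record of 662 kb Ppargc1a had 17 ND, 29 HFD and 11 FAD peaks. Esrrg held 8 of the 28 thermogenic regions, and without it that share was 19.4% (20 of 103) with whole lists.

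The genes that handle folate and methyl groups had shares whose intervals included that of all records with whole lists, and the one-carbon genes fell below it when nearby FAD peaks counted. In one-carbon metabolism 29 of 109 regions lacked FAD (26.6%, interval 19.21 to 35.59%), in 19 of 59 genes, and with lists of equal length the count of genes was 11. With FAD peaks within 5000 bp counted as present it was 8 of 109 regions (7.34%, interval 3.77 to 13.8%) against 14.2% over all records, in 6 genes. Mthfd1, the folate-interconverting enzyme gene of the cytosol, had a region with 101 and 206 that lay 412 bp from an FAD peak, its mitochondrial relative Mthfd1l 3 regions (strongest 109 and 88.1), and Aldh7a1, an enzyme gene of betaine formation, 3 (92.7 and 106). Among writers, readers and erasers of DNA methylation it was 13 of 60 regions (21.7%), led by Mbd5 (114 and 126), Tet1, a demethylating dioxygenase gene with 3 regions (104 and 128), and the methyltransferase gene Dnmt3b (114 and 82.5). For cAMP signalling 75 of 296 regions (25.3%) lacked FAD in 35 of 53 genes, and 55 (18.6%, interval 14.6 to 23.4%) under the 5000 bp rule, with the phosphodiesterase genes Pde7b (173 and 227) and Pde4d (7 regions, 159 and 179.6) and the exchange factor gene Rapgef4 (193 and 172) leading.

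Inflammation and matrix genes, groups known to respond in obese fat, had intervals that included the share of all records with whole lists. Among inflammation genes 13 of 54 regions (24.1%) lacked FAD in 9 of 57 genes. On so few regions the share moved widely, to 38.1% with the upper 50% of peaks, 42.9% with scores of at least 100 and 11.4% with lists of equal length, where 4 genes were counted and all records had 17.5%. The upper 50% and the cut at 100 leave weaker FAD peaks uncounted. The strongest regions were in Cx3cr1, a chemokine receptor gene (94.3 and 191), Stat3 (94.3 and 127) and Mapk14, the p38 kinase gene (69.1 and 83.3). Of 196 regions in matrix genes 50 did (25.5%), with the collagen genes Col8a1 (155 and 235), Col1a2 (112 and 115) and Col4a4 (135 and 98.6) at the top. Developmental transcription factors had 29 of 118 (24.6%), with Tbx4 (2 regions and no FAD peak in the record, 107 and 203), Sox5 (10 regions, 96.2 and 154) and Twist2 (95.5 and 188). Imprinted genes had 33 of 138 (23.9%), with Inpp5f (149 and 189.9), Zdbf2 (124 and 94.6) and a region common to Snurf and Snrpn (94.3 and 136). Germline genes had 25 of 133 (18.8%), with Rec114 (135 and 103), Dmc1 (125 and 101) and Mael (99.1 and 104), and housekeeping genes 8 of 35 (22.9%), with the proteasome genes Psmb2 (104 and 124) and Psmd1 (114 and 94.0) and the ribosomal gene Rplp0 (95.2 and 90.8).

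Fat is a mixture of cells, so marker genes of its cell types were counted in the same way. FAD was lacking at 14 of 74 regions in adipocyte markers (18.9%), 10 of 52 in leukocyte markers (19.23%), 18 of 76 in endothelial markers (23.7%), 9 of 34 in markers of mesothelium and fibroblasts (26.5%) and 1 of 8 in epididymal markers (12.5%), all with intervals that include 23.8% with whole lists. Named by strength were Ghr, the growth hormone receptor gene (132 and 135), and Tenm4 for adipocytes; Spi1, the gene of the myeloid factor PU.1 (108 and 80.7), Cd3e (71.9 and 76.5) and Ikzf3 (65.2 and 82.5) for leukocytes; Prox1 (145 and 321), Pecam1 (133 and 151) and Flt1 (129.7 and 143) for endothelium; Muc16 (145 and 136), Dpp4 (132 and 160) and Krt8 (123 and 185) for mesothelium and fibroblasts; and Lcn6 (114 and 65.9) for the epididymis. Cfd, the adipsin gene of adipocytes, held 1 ND and 1 HFD peak in 1 region at its gene end (68.7 and 90.4) and no FAD peak in its record. Of the adipocyte marker genes 7 of 28 (25%) held a FAD-lacking region, against 26.8% of all coding genes, and Tenm4 held 6 of the 14 regions. No region lacked FAD in Adipoq, Lep, Slc2a4, Lipe, Pnpla2, Cd36, Aqp7, Adrb3 or Pck1, which also had ND and HFD regions. In a bulk tissue, fewer cells of a type and less methylated DNA per cell cannot be told apart, and the part of cell composition in these counts was not tested.

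Hairpins of microRNAs overlapped FAD-lacking regions in 13 of 919 cases, in 12 regions, against 59 in regions of all 3 libraries. Regions lacking only ND held 9 and those lacking only HFD 2. The sets differ in size, as all ND and HFD regions comprised 17151 without FAD and 61740 with it (21.7% lacking FAD). Their 22 mature arms had 22 different seeds (bases 2 to 8), so no seed was shared. The arms below belong to the strongest region and to the conserved families among the 13, a choice made after the values were seen, with the seed in capitals.
mmu-miR-6340: gUCAGCAGcagcuucgcuuuggc
mmu-miR-26a-5p: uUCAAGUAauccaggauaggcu
mmu-miR-194-5p: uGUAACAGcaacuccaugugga
mmu-miR-215-5p: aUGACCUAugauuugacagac
The region over Mir6340 (hairpin chr2:173701030-173701148, minus strand) scored 109 in ND and 155 in HFD, with an FAD peak 4916 bp away. Mir26a-2 (chr10:126995530-126995613, plus strand) lay in a region with 75.5 and 89.6, and FAD was 11568 bp away. Mir194-1 and Mir215 lie side by side (chr1:185313319-185313385 and chr1:185313581-185313692, plus strand) in 1 region with 58.3 and 86.2, near the lowest score of the lists in ND.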

How the data were processed

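The 3 deposited files are peak lists, 1 per diet, with the authors' score of each peak, and per the submitters' processing notes the genome build is mm10. Peaks are named in the files after the MACS caller. Its settings, the aligner, the read depth and the score's scale are not stated in the sources used here. The score was used to rank and describe peaks within a list. Peaks were called by the authors per library, so absence depends on depth and threshold.

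Autosomal peaks were pooled and merged at an overlap of 1 bp in Python 3.11.15 with numpy 2.4.6, pandas 2.3.3 and matplotlib 3.10.9. The code was tested on simulated data, and bedtools 2.31.1 gave the same 17151 regions. Gene records and promoter windows are from RefSeq tables of GRCm38.p6. The sources here hold no exons, so exonic or intronic position was not analysed here. The 20 gene lists held 946 symbols, of which 924 were found as autosomal protein-coding genes. The regions, lists and naming rule were chosen with earlier results of these data known.

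The text names, by strength, the 10 strongest regions, the 10 strongest with no FAD peak within 5000 bp, the 8 strongest at gene ends, the 3 widest, the 3 farthest from FAD, the 5 longest runs, the 6 genes with most regions, the 8 strongest genes without FAD peaks and up to 3 genes per list. Gene symbols of the Gm and Rik series were passed over. A gene that the rule names is not reported here. The remaining clock genes and single genes of other lists were added after their values were seen. With 1 library per diet no test between diets was made. Shares carry Wilson 95% intervals, and the limit for a count of 0 is 3 counts. Alternatives used the upper 50% of scores, equal-length lists, scores of at least 100, all chromosomes, peaks within 500 bp joined, 50% reciprocal overlap, absence within 5000 bp, and records with 2000 bp or region midpoints for genes.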

Additional observations from a re-analysis of the deposited data

How the results depend on the processing

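No paired analysis was possible because each diet has 1 library. The counts below come in the order of upper 50% of scores, equal-length lists and scores of at least 100. In the first and the last, a region counted as lacking FAD can hold an FAD peak below the cut. FAD-lacking regions numbered 8483, 10403 and 9349, their share of ND and HFD regions was 21.24%, 15.72% and 23.21%, the share lacking ND 16.84%, 14.47% and 15.48%, and genes with a region at an end or promoter 526, 697 and 578. The share lacking HFD was 6.021% and 12.29% in the first 2, regions with no FAD peak within 5000 bp 7060 and 6791, and genes with a region in the record 3361 and 3624 in the first and the last. Median ND scores were 129.79, 82.47 and 129.66, HFD scores 148.04, 102.84 and 148.65, ND widths 503, 442 and 502 bp, and HFD widths 623 bp in the first and the last. With all chromosomes the shares lacking FAD, ND and HFD were 21.33%, 17.06% and 5.934%, and with joined peaks 21.01%, 16.73% and 4.999%. Reciprocal overlap gave 24.9% lacking FAD. With FAD absent within 5000 bp there were 10708 regions (13.57%) and 689 genes at ends. With ND and HFD scores of at least 100 and all FAD peaks there were 1969 regions (4.888%), 992 genes in records and 118 at ends. The cause of these moves was not tested beyond the peaks removed. The pair lacking FAD had the highest share of the 3 pairs in all settings run on all 3 pairs. Of the 20 lists, the number with a count of genes within 1.5 times the main count was 13, 14 and 13 in the first 3 settings, 19 with joined peaks, 13 with FAD absent within 5000 bp, 19 with 2000 bp added and 20 by midpoint. Leaving out the gene with most regions, added after the data were seen, left the clock list at 35.0% and the neuronal list at 18.5%. Read depth, the score's scale and the lack of replicates limit all values.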

Other observations

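The sex chromosomes were outside the definition and did not follow the autosomes in list length. On X the lists held 3160 ND, 3152 HFD and 2875 FAD peaks, and on Y 2309, 1879 and 2274, so HFD peaks numbered 0.997 times the ND peaks on X and 0.814 times on Y, against 1.35 times on autosomes. Of regions with ND and HFD peaks, 319 of 2328 on X (13.7%, interval 12.4 to 15.2%) and 183 of 1537 on Y (11.9%, 10.4 to 13.6%) lacked FAD, both below the 21.7% of autosomes. Of regions with HFD and FAD peaks, 199 of 2208 on X and 140 of 1494 on Y lacked ND, also below the 17.4% of autosomes. On Y the regions of ND and FAD that lacked HFD made 343 of 1697 (20.2%), where autosomes had 5.46%.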
